A study of Mus musculus with 8 samples.

Results

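The genes described here make or prepare the covalent cross-links of collagen and elastin fibres, and were chosen by name. They are lysyl oxidase (Lox) and its relatives Loxl1, Loxl2, Loxl3 and Loxl4, the collagen lysyl hydroxylases Plod1, Plod2 and Plod3, and transglutaminase 2 (Tgm2), which cross-links matrix proteins by another chemistry. All 9 were measured, as 9 of 20678 genes. They were represented by 21 of the 45101 probe sets on the array. Each gene is given by its probe set with the highest mean log2 level over the 8 arrays, and the other probe sets are given as a range.

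A collagen cross-link is prepared inside the cell and closed outside it. Lysyl hydroxylases add hydroxyl groups to lysines of procollagen in the endoplasmic reticulum. Plod1 acts mainly on lysines of the triple helix and Plod2 on those of the telopeptides at its ends, and Plod3 also attaches sugars to hydroxylysine. Lysyl oxidases are secreted copper enzymes that turn lysines and hydroxylysines into aldehydes, which then condense into cross-links that make a scar stiff and hard to degrade. Hepatic stellate cells and portal fibroblasts are the main sources of such matrix in an injured liver.

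RNA was profiled on 8 expression arrays, 1 for each group, from adult mice of C57Bl6 background. Whole liver came from a wild type animal, and every sorted fraction carried the Col1a1-GFP transgene, a reporter of collagen type I expression. Without stated injury there were vitamin A-positive hepatic stellate cells (HSC), VitaminA-GFP+ cells (VitA-GFP+ cells below, read here as GFP-positive cells that lack vitamin A) and GPM6A+ mesothelial cells (MC), the cells that cover the liver surface. Portal fibroblasts (PF) were taken after a sham operation. HSC, PF and MC were also taken from biliary fibrosis. How fibrosis was induced, how PF were gated, and how many animals gave each RNA are not given in the sources used here. Only PF have a sham control. Fibrotic HSC and fibrotic MC were therefore compared with HSC and MC for which no operation or injury is stated.

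With 1 array per group there is no spread between samples, no test and no p-value, and every difference below is between single arrays on the log2 scale. A gene counted as 4-fold higher or lower when its difference was at least 2 and its higher array lay at or above that array's own median. The share of all genes that met the same rule is given beside the first count of the 9 genes in each comparison, and in the fibrosis pairs it serves for the list and marker counts too. In RNA of whole tissue or of a mixed fraction, fewer cells of a type and less RNA per cell cannot be told apart.

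The arrays were not alike in RNA quality. The ratio of 3′ to 5′ signal of Gapdh, which grows as transcripts are degraded or copied short, was 1.42 to 2.01 on the 4 arrays whose sample codes begin with T or R, and 5.68 to 13.8 on the 4 arrays with AI codes. The AI arrays are the 3 of biliary fibrosis and sham PF, so the HSC and MC fibrosis pairs cross this divide and the PF pair does not. Markers of each fraction's name were present but not particular to it: 14 of 14 HSC markers lay at or above the array median on both HSC arrays, 13 of 13 portal fibroblast markers on both PF arrays, and 13 of 13 mesothelial markers on both MC arrays. All 14 HSC markers did so on the VitA-GFP+ and sham PF arrays too, all 13 portal fibroblast markers on the VitA-GFP+ array, and all 13 mesothelial markers on the VitA-GFP+ and fibrotic PF arrays. The arrays also differed in sex: Xist, the transcript of the inactive X, was at 11.40 to 11.96 on the log2 scale in whole liver, MC and sham PF and at 4.37 to 5.84 on the other 5, and MC alone had both high Xist and high Ddx3y (9.67), a Y-linked gene. The PF and MC fibrosis pairs, HSC and VitA-GFP+ cells against whole liver, both against MC, and sham PF against VitA-GFP+ cells cross this divide. The part of these differences in the results below was not tested.

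Lysyl oxidase itself had the widest range of the 9 genes and was close to the array median in HSC with no stated injury. Its intensity was 12.4 in whole liver, 47.2 in HSC, 1220 in VitA-GFP+ cells, 1287 in MC, 2411 in sham PF, and, in biliary fibrosis, 1520 in MC, 3231 in HSC and 4623 in PF. Whole liver and HSC were low, and the other 6 arrays were high. On this probe set every AI array lay above every array with a T or R code, so the order runs with the RNA quality divide. The step from VitA-GFP+ cells down to HSC was 4.69 on the log2 scale, the largest between neighbours in the order of any of the 9 genes. A further probe set of Lox also had whole liver and HSC (50.6) lowest, with 555 in HSC of biliary fibrosis. The other 6 arrays were in another order on it, with VitA-GFP+ cells highest (722) and fibrotic MC at 184. That order did not run with the RNA quality divide. The remaining probe set lay below the array median on all 8 arrays.

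Loxl1, which acts on elastin during elastic fibre assembly, followed Lox in being low in HSC with no stated injury. Its intensity was 9.03 in whole liver, 161 in HSC, 966 in VitA-GFP+ cells, 993 in MC, 907 in sham PF, and, in biliary fibrosis, 283 in MC, 500 in HSC and 693 in PF. The 3 control fractions other than HSC lay within 2-fold of each other, and above every array of biliary fibrosis. The other Loxl1 probe set had its highest value in sham PF (1187) and not in MC (454), so the order among these fractions depends on the probe set. On it fibrotic PF (764) and fibrotic HSC (650) lay above VitA-GFP+ cells (595) and MC. Neither the 2-fold closeness of the control fractions nor their place above the fibrotic arrays held on both probe sets.

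Loxl2, an oxidase of type IV as well as fibrillar collagen, was the most even lysyl oxidase among uninjured and sham fractions. Its intensity was 126 in whole liver, 2247 in HSC, 2130 in VitA-GFP+ cells, 2026 in MC, 2744 in sham PF, and, in biliary fibrosis, 1214 in MC, 2819 in PF and 5171 in HSC. HSC of biliary fibrosis were highest, less than 2-fold above the next array, and fibrotic MC were the lowest sorted fraction. On the other probe set fibrotic HSC (277) were also highest and fibrotic MC (63.0) the lowest sorted fraction. There the next array was VitA-GFP+ cells (112), more than 2-fold below fibrotic HSC. Both Loxl2 probe sets also name a second locus (Gm21451 in RefSeq), so which copy was measured is uncertain.

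Loxl3 and Loxl4 were highest in HSC, with or without fibrosis. The intensity of Loxl3, an oxidase known for its part in palate and spine development, was 46.6 in whole liver, 458 in HSC, 252 in VitA-GFP+ cells, 42.8 in MC, 293 in sham PF, and, in biliary fibrosis, 152 in MC, 255 in PF and 654 in HSC. MC with no stated injury were as low as whole liver. The intensity of Loxl4, which shares scavenger receptor domains with Loxl2 and Loxl3, was 44.8 in whole liver, 676 in HSC, 165 in VitA-GFP+ cells, 136 in MC, 205 in sham PF, and, in biliary fibrosis, 62.3 in MC, 123 in PF and 734 in HSC. The 2 HSC arrays stood 1.72 above the next array, sham PF, on the log2 scale. A weaker Loxl4 probe set, below the array median throughout, was also highest on the 2 HSC arrays (28.5 and 29.1).

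Among the lysyl hydroxylases, Plod1 was highest in HSC with and without fibrosis, like Loxl3 and Loxl4, while Plod3 stood out in fibrotic MC. The intensity of Plod1 was 323 in whole liver, 623 in HSC, 508 in VitA-GFP+ cells, 82.9 in MC, 258 in sham PF, and, in biliary fibrosis, 201 in PF, 259 in MC and 725 in HSC. HSC with no stated injury lay only 0.29 above VitA-GFP+ cells on the log2 scale. MC with no stated injury were the lowest array, below whole liver. A weaker Plod1 probe set, below the array median throughout, was highest in sham PF (42.6) and not in HSC (31.6). The intensity of Plod3 was 172 in whole liver, 143 in HSC, 241 in VitA-GFP+ cells, 122 in MC, 147 in sham PF, and, in biliary fibrosis, 177 in HSC, 233 in PF and 907 in MC. The other 7 arrays of Plod3 all lay within 2-fold of each other, and fibrotic MC stood 1.91 above the next array on the log2 scale. Plod3 and Loxl3 rest on 1 probe set each.

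Plod2, the telopeptide hydroxylase, was low in whole liver and similar in all sorted fractions. Its intensity was 20.0 in whole liver, 216 in HSC, 340 in VitA-GFP+ cells, 452 in MC, 310 in sham PF, and, in biliary fibrosis, 224 in MC, 245 in PF and 415 in HSC. The sorted arrays spanned 1.06 on the log2 scale, the narrowest range among the 9 genes. Tgm2, present in many cell types, came next with a range of 1.16. Its intensity was 3866 in whole liver, 7377 in HSC, 9243 in VitA-GFP+ cells, 10883 in MC, 16475 in sham PF, and, in biliary fibrosis, 14529 in PF, 15192 in HSC and 16339 in MC. All 4 AI arrays were above all 4 others on this probe set, and so the order runs with the RNA quality divide.

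The Tgm2 probe sets disagreed on that order. Of the 6, the 1 named above and 2 more with the x suffix, which marks probes that can bind other transcripts, were highest on an AI array. The 2 with the a suffix were highest in MC with no stated injury, at 955 and 4038, and lowest among the sorted fractions in fibrotic PF, at 133 and 1204. The last, also of x suffix, was below the array median on every array. No order of Tgm2 among the sorted fractions held over its probe sets.

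**Figure D1:**
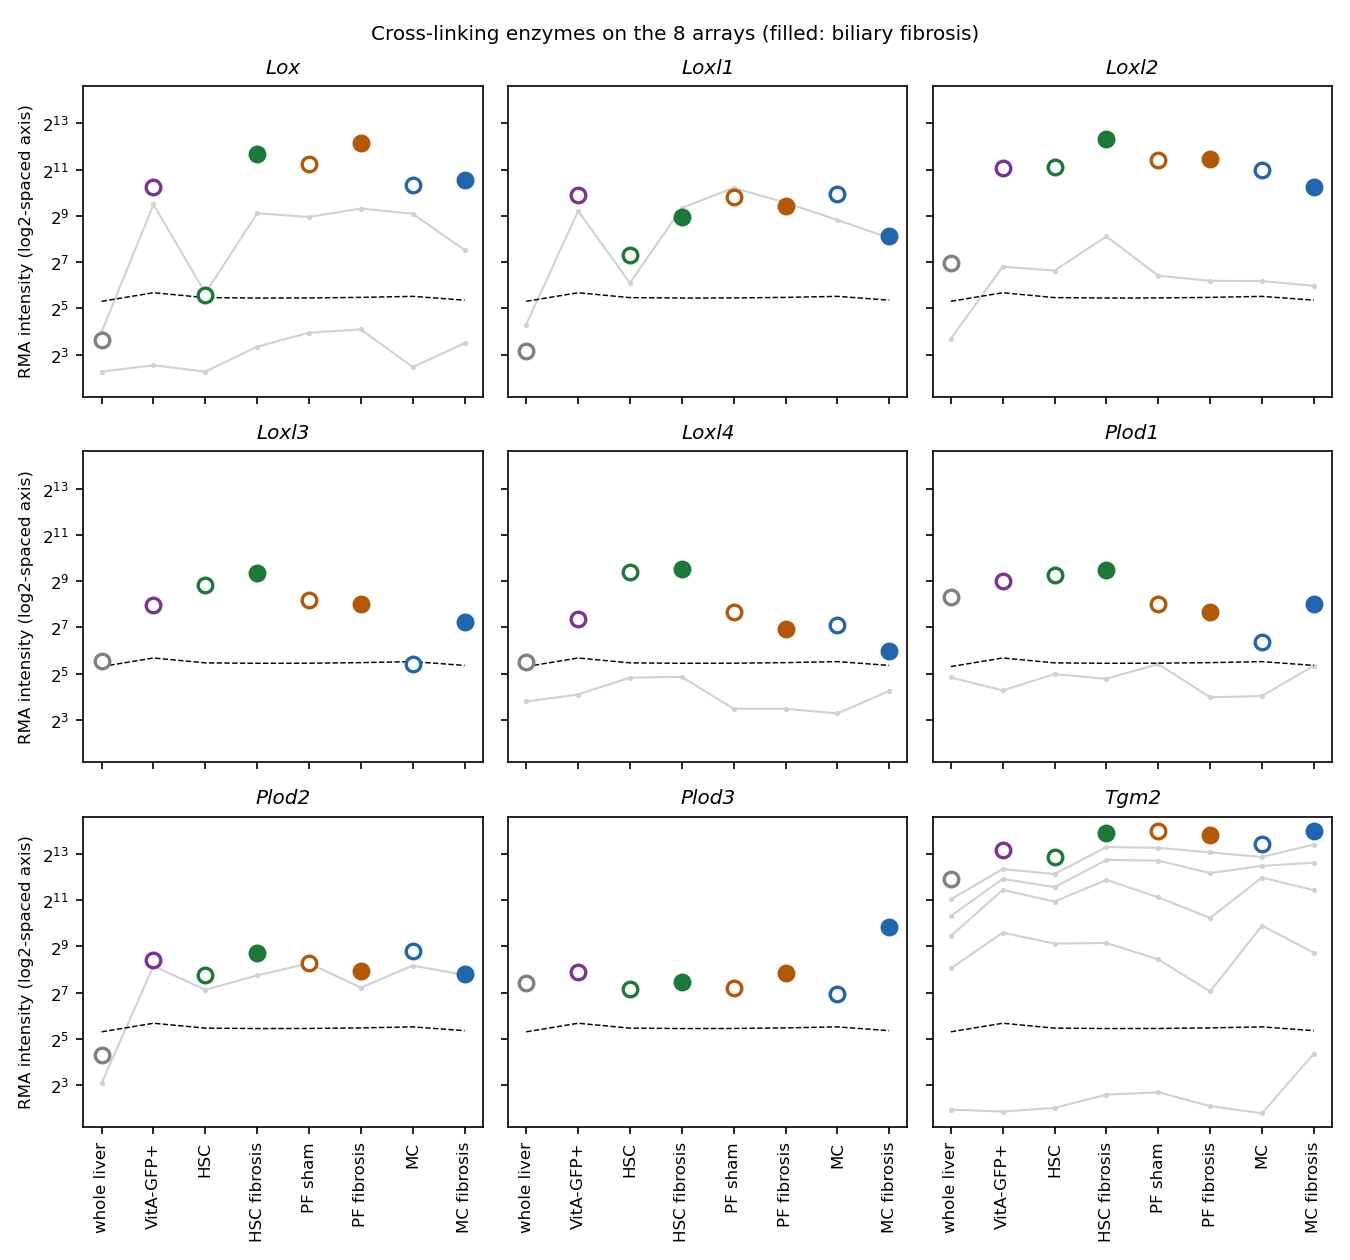
RMA intensity of each gene on the 8 arrays, on a log2-spaced axis. Large circles show the probe set used (open: no fibrosis stated; filled: biliary fibrosis), grey points joined by lines its other probe sets, and the dashed line the median of each array. Lox in HSC lies on the median line at 47.2 and in fibrotic HSC at 3231, and Plod3 is level except in fibrotic MC at 907.

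With 1 array per group, small steps in these orders carry no weight. Of the 63 steps between neighbours over the 9 genes, 9 were at least 2-fold. Besides those already given, they were the steps to whole liver for Lox, Loxl1, Loxl2, Loxl3 and Plod2, and for Plod1 the step of 1.28 from fibrotic PF to MC. Tgm2 had none.

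Promoter sequence was at hand for 3 of the 9 genes, from RefSeq for the GRCm38.p6 build, and is shown because Loxl4 and Plod1 were highest on the HSC arrays and Plod3 in fibrotic MC. Each line gives the 250 bases before the start of the gene, 5′ to 3′ on the gene's strand. Capitals mark the core of the hypoxia response element, ACGTG or GCGTG on either strand, since several lysyl oxidases and lysyl hydroxylases are known hypoxia-regulated genes.
Loxl4, chr19:42612807-42613056, minus strand: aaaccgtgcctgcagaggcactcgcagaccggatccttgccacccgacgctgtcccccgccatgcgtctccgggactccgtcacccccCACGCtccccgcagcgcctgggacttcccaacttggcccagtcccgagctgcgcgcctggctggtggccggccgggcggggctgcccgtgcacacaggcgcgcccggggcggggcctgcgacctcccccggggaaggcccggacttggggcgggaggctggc
Plod1, chr4:147936777-147937026, minus strand: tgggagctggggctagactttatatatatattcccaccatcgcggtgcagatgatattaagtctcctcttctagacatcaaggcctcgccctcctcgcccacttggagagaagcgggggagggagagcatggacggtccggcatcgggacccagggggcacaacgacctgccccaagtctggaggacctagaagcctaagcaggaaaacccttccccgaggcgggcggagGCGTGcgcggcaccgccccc
Plod3, chr5:136986769-136987018, plus strand: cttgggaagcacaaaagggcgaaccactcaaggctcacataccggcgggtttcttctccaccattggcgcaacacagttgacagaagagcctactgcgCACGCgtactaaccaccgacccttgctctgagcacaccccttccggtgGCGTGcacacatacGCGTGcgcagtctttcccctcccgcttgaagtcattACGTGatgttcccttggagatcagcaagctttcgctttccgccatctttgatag

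Plod3 held 4 such cores in this window, and Loxl4 and Plod1 held 1 each. Of 32851 promoters of the same length, 38.6% held at least 1 and 2.58% held 4 or more. ACGTG is also part of the E-box CACGTG, which 6.02% of promoters held. The GC box, GGGCGG on either strand, occurred 3 times in Loxl4, 2 times in Plod1 and not in Plod3, against 32.7% of all promoters with at least 1. The Loxl4 window was 76.0% G and C, against a median of 52.4% over all promoters, and both motifs are rich in these bases. Such matches are letters in a window and were not measured as sites.

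All sorted fractions carried several of these genes at far higher levels than whole liver, in which hepatocytes make up most of the tissue. HSC had 5 of the 9 genes 4-fold higher (8.55% of all genes), namely Loxl1, Loxl2, Loxl3, Loxl4 and Plod2, with differences of 3.30 to 4.16. On its other probe set Loxl1 came to 1.80 in HSC, short of the rule. VitA-GFP+ cells also had 5 (10.5% of all genes), which included Lox (6.62) and Loxl1 (6.74) but not Loxl4 (1.89). MC had 4 (8.79% of all genes): Lox, Loxl1, Loxl2 and Plod2. Only the comparison of sham PF crossed the RNA quality divide, with Gapdh ratios of 1.42 in whole liver and 13.2 in sham PF. Sham PF had 7 (11.0% of all genes), all but Plod1 and Plod3. Of these, Loxl4 came to 0.94 and Tgm2 to 1.59 in probe set means, and Tgm2 to 1.95 with arrays shifted to the same median, all short of the rule. With the same shift Plod1 in MC came to -2.18 and met it. Of the 9 genes, 0 were 4-fold lower in HSC (11.0% of all genes), VitA-GFP+ cells (7.26%), MC (11.4%) or sham PF (10.7%). These comparisons share the whole-liver array. In whole liver, Lox (12.4), Loxl1 (9.03) and Plod2 (20.0) lay below the array median (39.6), so the sizes of their differences are uncertain. Plod1 and Plod3 stayed within 4-fold of whole liver in all of these comparisons, with Plod1 at -1.96 in MC as the widest difference.

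Uninjured HSC and MC split the family. HSC had Loxl3 (3.42), Plod1 (2.91) and Loxl4 (2.31) 4-fold higher than MC, and Lox (-4.77) and Loxl1 (-2.63) 4-fold lower. These are 3 of 9 genes higher, against 4.20% of all genes, and 2 of 9 lower, against 4.77%. HSC and VitA-GFP+ cells differed in Lox (-4.69), Loxl1 (-2.59) and Loxl4 (2.03), which are 1 of 9 higher, against 2.87% of all genes, and 2 of 9 lower, against 7.11%. MC and VitA-GFP+ cells differed in Loxl3 (-2.56) and Plod1 (-2.62), 2 of 9 lower against 6.60% of all genes. These comparisons share arrays, so they do not count separately. The VitA-GFP+ array also carried markers of other cells. Its summed intensity of endothelial markers was 14.70 on the log2 scale, against 10.39 in HSC and 11.30 in MC. For smooth muscle markers it was 15.34, against 12.41 in HSC and 11.65 in MC. For mesothelial markers it was 15.09, against 7.83 in HSC and 16.32 in MC. For macrophage markers it was 13.17, against 8.59 in HSC and 10.24 in MC. The part of these in the differences was not tested. Sham PF and VitA-GFP+ cells had 0 of 9 genes 4-fold apart (5.81% of all genes), with differences from -0.98 for Plod1 to 0.98 for Lox. The 3 uninjured arrays have T or R codes and the sham PF array an AI code. In probe set means, 4 of these calls no longer met the 4-fold rule: Loxl4 and Plod1 came to 1.93 each between HSC and MC, Loxl4 to 1.38 between HSC and VitA-GFP+ cells, and Plod1 to -1.43 between MC and VitA-GFP+ cells.

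Portal fibroblasts showed none of these genes 4-fold apart between biliary fibrosis and sham surgery (0 of 9, against 5.34% of all genes). On the probe sets used, Lox had the largest difference, 0.94 higher in fibrosis (4623 against 2411). Its other probe set above the array median gave 0.36. Plod3 followed at 0.66 and Loxl4 at -0.74. The median over the 9 genes was -0.20, against -0.01 over all genes. Tgm2 was at -0.18, while its probe sets above the array median ran down to -1.39. Plod2 was at -0.34, and its other probe set, also above the array median, gave -1.05. Markers of other cells differed far more in this pair: the summed intensity of hepatocyte markers stood at 9.27 and 14.05 on the log2 scale in sham and fibrosis (9 of 11 4-fold higher), that of cholangiocyte markers at 11.15 and 13.86 (8 of 12), of macrophage markers at 9.48 and 13.10 (6 of 12), and of mesothelial markers at 11.98 and 14.79 (8 of 13). Portal fibroblast markers stood at 15.57 and 14.73, with 0 of 13 4-fold higher (3.77% of all genes) and 1 lower (1.58%). Xist was at 11.96 and 5.31. The part of these in the differences was not tested.

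Stellate cells of biliary fibrosis had all 9 genes above HSC with no stated injury, but only Lox past 4-fold. The difference in Lox was 6.10, but its value in HSC (47.2) lay at the array median (44.3) and may be background, so the size is uncertain. This is 1 of 9 genes, against 5.90% of all genes 4-fold higher, and 56.6% of all genes had a difference above 0. Its other probe set above the array median gave 3.46. Loxl1 (1.64), Loxl2 (1.20) and Tgm2 (1.04) were at least 2-fold higher, so that 4 of 9 genes passed 2-fold, against 15.0% of all genes. Loxl1 reached 3.24 on its other probe set, which would have met the 4-fold rule. The Tgm2 probe sets above the array median ran from 0.03 to 1.18, so whether Tgm2 passed 2-fold depends on the probe set. Plod2 was at 0.94, Loxl3 at 0.52, Plod3 at 0.31, Plod1 at 0.22 and Loxl4 at 0.12. The median over the 9 genes was 0.94, against 0.13 over all genes.

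Portal fibroblast genes and genes of other cells were higher on the same fibrotic HSC array. The summed intensity of portal fibroblast markers was 12.05 in HSC and 13.32 in fibrotic HSC on the log2 scale (8 of 13 4-fold higher), that of macrophage markers 8.59 and 13.55 (9 of 12), that of mesothelial markers 7.83 and 12.35 (5 of 13), that of cholangiocyte markers 9.21 and 12.03 (6 of 12) and that of hepatocyte markers 12.37 and 13.79 (8 of 11). HSC markers stood at 16.53 and 15.93, with 0 of 14 4-fold higher (5.90% of all genes) and 1 lower (3.13%). No marker has a value of 0 on any array. The Gapdh ratio was 1.75 in HSC and 5.68 in fibrotic HSC. The part of these in the Lox difference was not tested. Among arrays with AI codes alone, Lox in fibrotic HSC (3231) lay between sham PF (2411) and fibrotic PF (4623).

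Mesothelial cells of biliary fibrosis differed from MC with no stated injury in both directions. Plod3, the hydroxylase that also glycosylates collagen, was 2.89 higher (907 against 122, 7.42-fold), the only member past 4-fold (1 of 9, against 6.20% of all genes 4-fold higher and 4.68% lower). Loxl3 (1.83) and Plod1 (1.64) were more than 2-fold higher. Loxl1 (-1.81), Loxl4 (-1.13) and Plod2 (-1.01) were more than 2-fold lower, beside 17.2% of all genes 2-fold higher and 12.9% lower. The other probe sets of Loxl1 and Plod2 gave -0.77 and -0.41, short of 2-fold. Loxl2 was at -0.74. Tgm2 was at 0.59, and its probe sets above the median ran from -1.17 to 0.59. Lox was at 0.24 on the probe set used and at -1.57 on the other probe set above the median. The directions of Lox and Tgm2 are therefore open to the choice of probe set. The median was 0.24, against 0.25 over all genes.

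The mesothelial pair also crosses the divide in RNA quality, with Gapdh ratios of 2.01 and 13.8, and Xist was at 11.41 and 5.84. The summed intensity of mesothelial markers was 16.32 in MC and 15.71 in fibrotic MC on the log2 scale (4 of 13 4-fold lower), of macrophage markers 10.24 and 12.89 (7 of 12 higher), and of HSC markers 12.40 and 12.74 (4 of 14 higher). The part of these in the differences was not tested. Within the AI arrays, Plod3 was 1.96 higher in fibrotic MC than in fibrotic PF, just short of 4-fold.

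**Figure D2:**
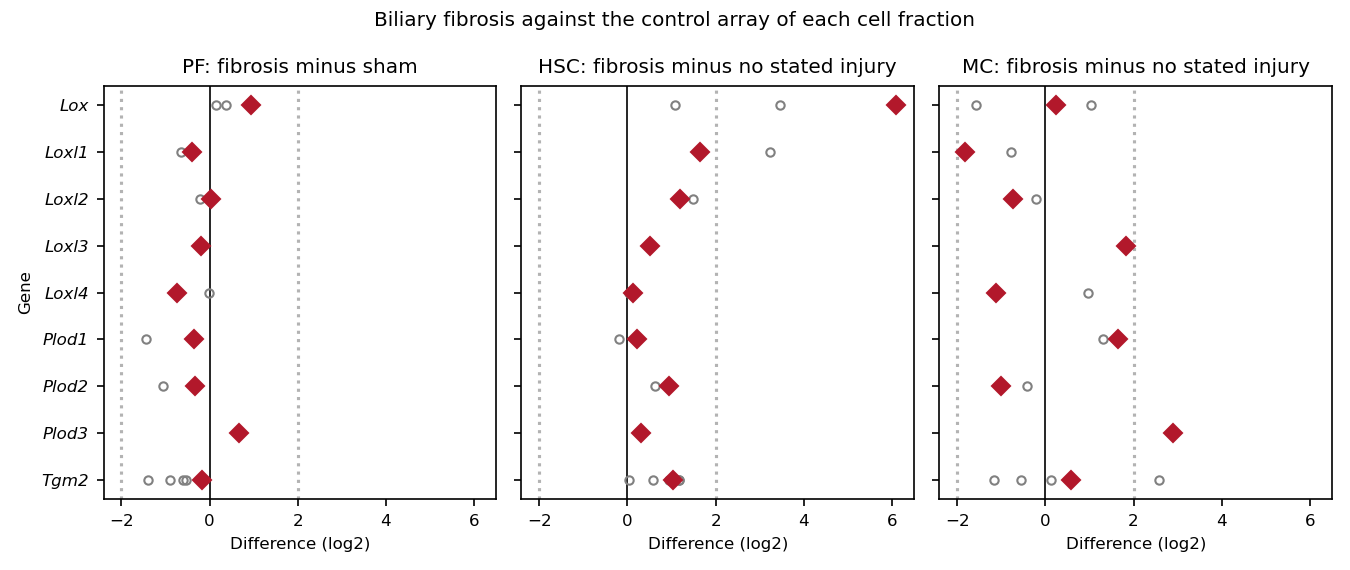
Difference in log2 intensity between biliary fibrosis and the control array of the same fraction, for each gene (red diamonds: probe set used; open circles: other probe sets; dotted lines: 4-fold). Lox in HSC at 6.10 and Plod3 in MC at 2.89 are the 2 diamonds past the dotted lines, and all PF diamonds lie between -0.74 and 0.94.

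The 3 fibrotic fractions were all on AI arrays. Fibrotic HSC had Loxl4 (2.58) 4-fold above fibrotic PF, 1 of 9 against 1.95% of all genes, though it came to 1.98 in probe set means. With Plod1 (1.85) and Loxl3 (1.36), 3 of 9 were at least 2-fold higher, against 7.92%. Fibrotic HSC had Loxl4 (3.56), Loxl3 (2.10) and Loxl2 (2.09) 4-fold above fibrotic MC, and Plod3 (-2.36) 4-fold below. These are 3 of 9 higher, against 5.74% of all genes, and 1 of 9 lower, against 4.13%. After quantile normalization Loxl2 came to 1.98 and Loxl3 to 1.82, short of the rule, and Loxl2 came to 2.00, just under it, with arrays shifted to the same median. Fibrotic MC and fibrotic PF had 0 of 9 genes 4-fold apart (7.96% of all genes), with Plod3 at 1.96 and Lox at -1.61. Lox was within 4-fold on all 3 fibrotic arrays. Each array enters 2 of these comparisons.

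The rest of the cross-linking pathway was read through 8 lists of genes. In the PF pair 1 of 10 fibrillar collagens and elastin was 4-fold higher (3.77% of all genes), with a median of -0.01. That gene was Col11a1, a minor fibrillar collagen best known from cartilage (5.11). Of 9 procollagen proteases and enhancers, only Pcolce2, which speeds removal of the procollagen C-propeptide, was 4-fold lower (-4.13, beside 1.58% of all genes). Of 14 matrix scaffolds, 7 were at least 2-fold lower (6.76% of all genes) and 0 were 2-fold higher, led by the tenascin Tnxb (-2.53) and the collagen-binding dermatopontin, Dpt (-1.89). The median of the scaffolds was -0.81, against -0.01 over all genes. F13a1, the coagulation transglutaminase also made by macrophages, was 3.11 higher in fibrosis. Of 14 hypoxia-response genes, 1 was 4-fold higher, Car9 (3.41), and the median of that list was 0.27. In sham PF, F13a1 (10.8), Col11a1 (14.3) and Car9 (24.4) lay below the array median, so the sizes of their differences are uncertain.

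In the HSC pair some substrates and scaffolds were 4-fold higher, as were 5.90% of all genes. Elastin, Eln (3.61), and Col5a2 (2.77) were 4-fold higher, 2 of 10 collagens and elastin, with a median of 0.80. Of 14 scaffolds, 4 were 4-fold higher and 0 lower: the fibril-binding fibromodulin, Fmod (5.32), the microfibril-associated Mfap4 (5.21), Dpt (4.46) and thrombospondin 1, Thbs1 (2.95). Eln and Dpt are also on the portal fibroblast marker list. The median of the scaffolds was -0.11, so most did not share this. Fkbp10, a chaperone needed for telopeptide lysyl hydroxylation by Plod2, was 2.06 higher, beside 0.94 for Plod2 itself, and its relative Fkbp11 was 2.47 higher. These are 2 of 10 chaperones and lysine glycosyltransferases. Fkbp10 and Col5a2 were each higher on all 4 AI arrays than on all 4 others, so that their differences run with the RNA quality divide. None of 10 prolyl hydroxylases and partners was 4-fold apart, and their median was -0.11. F13a1 was 3.86 higher, and the hypoxia-response list had Vegfa (3.27), the glucose transporter Slc2a1 (2.60) and Egln3 (2.59) as 3 of 14 genes 4-fold higher, with a median of 0.61. Slc2a1 was also higher on every AI array than on every other array. In HSC with no stated injury, Fmod (42.35), Mfap4 (14.5), Fkbp11 (15.7), F13a1 (38.5) and Egln3 (12.3) lay below the array median (44.26). The sizes of their differences are therefore uncertain.

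In the MC pair Fkbp10 was again higher, by 3.37 (2411 against 234), while Plod2 was at -1.01. It was the only 1 of 10 chaperones and lysine glycosyltransferases past 4-fold, and the median of that list was -0.24. Of 10 collagens and elastin, 0 were 4-fold apart and 3 were 2-fold lower (12.9% of all genes), including Col3a1 (-1.69) and Eln (-1.21). P3h3, of the collagen prolyl 3-hydroxylase family, was at -2.13, and the median of its list was -0.73. Of 14 scaffolds, 3 were 4-fold higher (6.20% of all genes) and 1 lower (4.68%), and 6 and 3 passed 2-fold. Periostin, Postn, a scaffold for the protease that activates Lox, was 4.26 higher from an intensity of 7.08, far below the array median, to 136. Thbs1 was at 3.59, the collagen-binding lumican, Lum, at 2.13, and Ltbp4, which helps assemble elastic fibres, at -2.26. Lum too started below the array median, at 10.7, and reached only 46.9. Slc31a2, a copper transporter of vesicles, was at -2.28, the only 1 of 6 copper genes past 4-fold. Of 14 hypoxia-response genes, 2 were 4-fold higher, Vegfa (3.22) and Egln3, and the median of that list was 0.51. Vegfa in MC (45.36) lay just below the array median (45.95), so the size of its difference is uncertain.

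**Figure D3:**
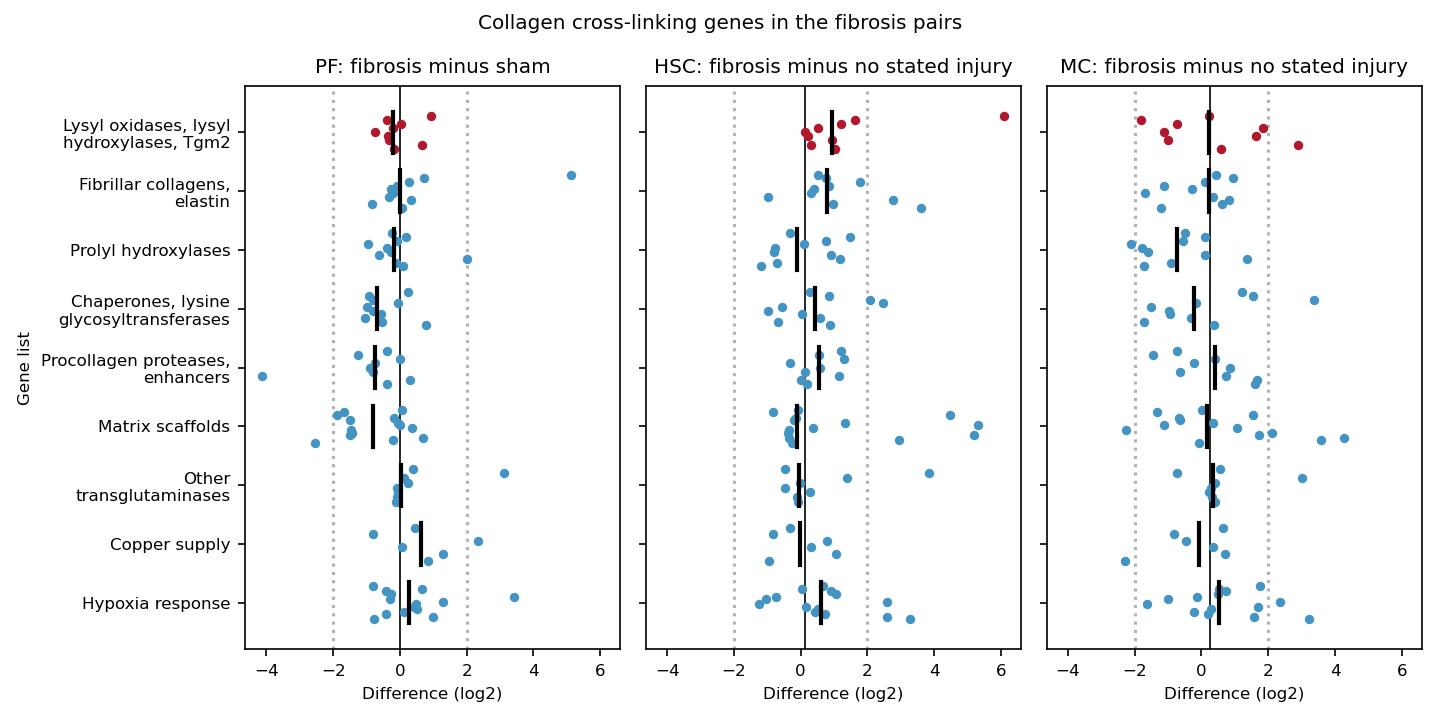
Difference in log2 intensity between biliary fibrosis and the control array of the same fraction for every measured gene of each list (points), with the list median (thick bar), the median of all genes (thin line) and the 4-fold limits (dotted lines). The members' median is 0.94 in the HSC pair, -0.20 in the PF pair and 0.24 in the MC pair.

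The members fell into unlike patterns over the 7 sorted-cell arrays. Pearson's r of log2 intensity was 0.90 for Loxl3 and Plod1, 0.82 for Lox and Tgm2, 0.72 for Loxl2 and Loxl4 and 0.70 for Lox and Loxl1. It was -0.62 for Loxl4 and Plod3 and -0.44 for Lox and Loxl4. With whole liver included, Loxl1 and Plod2 had an r of 0.95 and Loxl2 and Plod2 of 0.94, against 0.69 and 0.46 without it, so these rest much on the low whole-liver array. These values describe arrays that share cell fractions, RNA quality and sex, and carry no p.

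Other genes with the most similar pattern over all 8 arrays were sought among 9136 genes that vary at least 4-fold. They were the adhesion molecule Ncam1 for Lox (r = 0.98, 0.95 without whole liver), the AP-1 family member Fosl2 for Loxl1 (0.99 and 0.92), and the protease Adamts15 for Loxl2 (0.99 and 0.95). For Loxl3 it was Hand2, a transcription factor on the HSC marker list (0.98 and 0.97), for Loxl4 Mpzl1 (0.97 and 0.96), and for Plod1 Rab20 (0.96 with and without). Plod2 was nearest to Pmp22 (0.98, but 0.78 without whole liver), Plod3 to Zfp513 (0.97 in each) and Tgm2 to Synj2 (0.98 and 0.95). The highest of so many values over so few arrays is high for any gene.

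**Figure D4:**
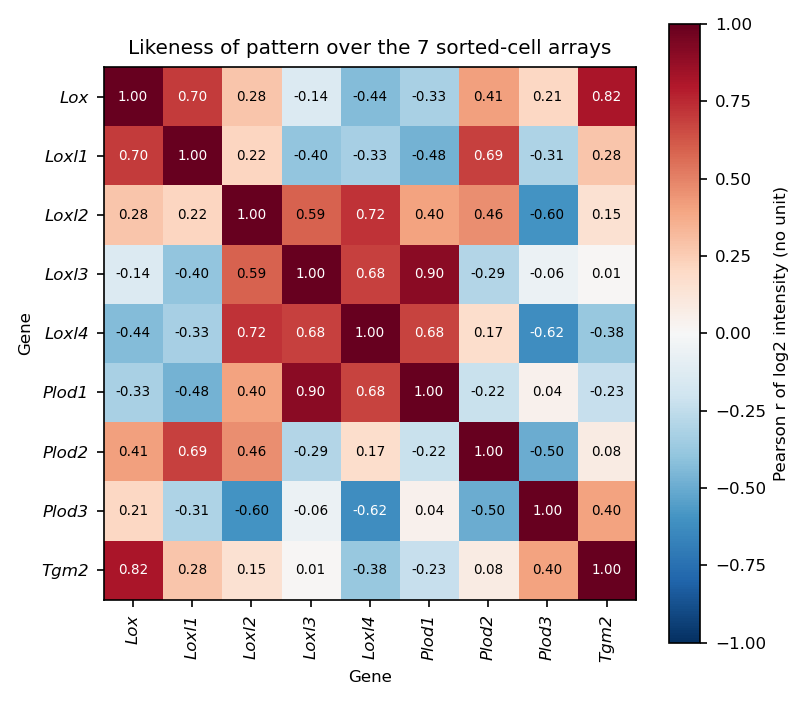
Pearson's r of log2 intensity between each pair of the 9 genes over the 7 sorted-cell arrays (red: alike; blue: opposite). Loxl3 and Plod1 have the highest value off the diagonal at 0.90, and Loxl4 and Plod3 the lowest at -0.62.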

How the data were processed

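Total RNA was amplified from 20 ng before biotin labelling and hybridised to GeneChip Mouse Genome arrays, per the labels' protocols. Per the submitters' processing notes, the deposited intensity values come from Partek and RMA. They are on a linear scale, so log2 was taken here. Versions, and whether RMA ran on all arrays together, are not given in the sources used here. The other deposited table held the same intensity values (largest difference 0). Array medians ran from 39.6 to 51.2 over non-control probe sets, and 64 control probe sets were left out.

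Symbols were updated through gene identifiers in RefSeq. Probe sets that name several genes were left out, except those of Loxl2. The members and lists were chosen with earlier results of these data known. Genes of a list were named from its 4 largest absolute differences, and the genes most like a member by Pearson's r over 8 arrays, leaving out predicted genes and ranges under 2 on the log2 scale. The number of arrays limits the precision. The calling step was tested on simulated data. Alternatives were other normalization, centring, minimum level, probe set rule and fold. Python 3.11.15, numpy 2.4.6, pandas 2.3.3 and matplotlib 3.10.9 were used.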

Additional observations from a re-analysis of the deposited data

Results flagged for a closer look

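Loxl1 went opposite ways in biliary fibrosis in HSC and in MC: its difference from the control array was 1.64 in HSC and -1.81 in MC, each at least 2-fold. Its other probe set gave 3.24 and -0.77. With 1 array per group this difference between the fractions was not tested.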

How the results depend on the processing

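No paired analysis was possible because each group is 1 array. No member past 4-fold changed direction under the other normalizations, minimum levels, probe set rules or fold. Counts of members past 4-fold that moved by over 1.5 times were as follows, and smaller moves are given after them. Quantile normalization anew gave 2 for the MC fibrosis pair (Loxl3 joined at 2.15), 1 for fibrotic MC against fibrotic PF (Plod3, 2.11) and 2 for fibrotic HSC against fibrotic MC, where Loxl2 (1.98) and Loxl3 (1.82) dropped out. Arrays shifted to the same median gave 1 for fibrotic MC against fibrotic PF (Plod3, 2.08). With the 75th percentile as minimum level there was 1 for MC against VitA-GFP+ cells and 3 for HSC against whole liver. Means of probe sets gave 2 for the HSC fibrosis pair (Loxl1, 2.44), 1 for MC against VitA-GFP+ cells, 3 for HSC against MC and 0 for fibrotic HSC against fibrotic PF. At 2-fold there were 4 in the HSC pair, 6 in the MC pair, 3 for fibrotic HSC against fibrotic PF, 4 for fibrotic MC against fibrotic PF and 7 for MC against whole liver, and the calls over all pathway lists and comparisons went from 278 to 468. Smaller moves were 4 to 3 for fibrotic HSC against fibrotic MC (Loxl2, 2.00), 4 to 5 for MC against whole liver (Plod1, -2.18) and 7 to 6 for sham PF against whole liver (Tgm2, 1.95) with shifted arrays. With the 75th percentile VitA-GFP+ cells against whole liver went from 5 to 4 (Loxl3) and sham PF from 7 to 6 (Loxl4). With probe set means HSC against VitA-GFP+ cells went from 3 to 2 (Loxl4, 1.38), sham PF against whole liver from 7 to 5 (Loxl4, 0.94, and Tgm2, 1.59), and 7 of the 9 genes had a 4-fold range over the arrays. At 2-fold HSC against MC, HSC against whole liver and fibrotic HSC against fibrotic MC came to 6 each, and VitA-GFP+ cells against whole liver to 7. Probe sets without s, x or a suffix gave no value for Tgm2, which took sham PF against whole liver from 7 to 6. Without a minimum level no count of members moved. The cause of each move was not tested beyond what the setting itself does. Likeness without whole liver was chosen after seeing the data. Intensities near the array median, such as Lox in HSC, may be background, so folds from them are uncertain.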

Other observations

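Fkbp10 varied among the fractions in a way its partner Plod2 did not: its intensity was 19.3 in whole liver, 181 in HSC, 281 in VitA-GFP+ cells, 234 in MC, 1118 in sham PF, and, in biliary fibrosis, 634 in PF, 755 in HSC and 2411 in MC. All 4 AI arrays lay above the other 4. P3h2, a prolyl 3-hydroxylase of basement membrane collagens, was at 1334 and 784 in HSC with and without fibrosis, 1253 in VitA-GFP+ cells, 329 in sham PF and 307 in fibrotic PF, but at 28.2 in MC and 19.2 in fibrotic MC, both below their array medians.

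F13b, the carrier chain of coagulation factor XIII, was at 2730 in whole liver and at most 35.8 elsewhere. Tgm1 was at 510 in whole liver and at most 55.3 elsewhere.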
